A study of Mesocricetus auratus with 64 samples.

Results

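The cytosolic ribosomal protein genes were followed through golden hamster oocytes, early embryos and testis with and without Pld6. They were chosen by name: rows named Rpl or Rps with a number and at most the letters a, x or l, together with Rpsa and Rplp0 to Rplp2, and without the testis copy Rpl10l. The rule found 79 genes among 32303 gene rows, 48 for the large subunit and 31 for the small subunit. All 79 matched a RefSeq symbol, and 78 of them were marked as protein-coding. All 79 passed the filter on low counts in both fits, which tested 17294 genes in oocytes and embryos and 18024 in testis. The filter is passed through the groups where a gene is high, and in the oocyte groups many of these genes had only a few reads.

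A cytosolic ribosome is assembled from a small subunit, which reads the mRNA, and a large subunit, which forms peptide bonds. Each ribosome holds 1 copy of nearly every ribosomal protein, so cells usually make the set in matched amounts, and the mRNAs share a pyrimidine tract at their start through which mTOR and Larp1 control their translation. In mammals a growing oocyte stores ribosomes and ribosomal protein mRNA, much maternal mRNA is lost as the oocyte matures, and the embryo resumes making ribosomes after its own genome is switched on. In testis, male germ cells silence the X chromosome in meiosis, and in mouse and human Rpl10, Rpl39 and Rps4x lie on it.

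Long RNA of Syrian-breed animals was counted in 32 libraries. KO animals are labelled Pld6 KO and WT animals wild type. Pld6 encodes an outer mitochondrial membrane protein needed to make piRNAs, the small RNAs that silence transposons in germ cells. KO and WT had 2 libraries each at 6 stages labelled GV (oocytes with an intact nucleus), MII (oocytes arrested in the second meiotic division), 10PEA, 1C-20PEA, 33PEA and 54PEA, a further KO MII set labelled D321 had 2, and testis at 3 weeks of age had 3 KO and 3 WT. What PEA, 1C and D321 stand for is not given, nor is the altered part of Pld6, and no label names an animal, so p-values below measure the spread between libraries only. WT-GV stands for wild-type libraries at GV, and other groups are named likewise.

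Libraries held 1544198 to 11031837 gene counts in oocytes and embryos and 31572737 to 34257661 in testis. Pld6 itself had 3.23, 2.46 and 4.94 CPM, its share of the gene counts scaled to the usual CPM total in KO testis, against 43.6, 37.7 and 51.2 in WT testis. In GV oocytes the targeted gene did not separate the labels, with 42.0 and 22.7 CPM in KO-GV and 36.2 and 31.9 in WT-GV. At MII, 10PEA, 1C-20PEA and 33PEA both KO libraries lay below both WT libraries in Pld6. It had no count in KO-33PEA, against 5.51 and 32.6 CPM in WT-33PEA (adjusted p = 0.0214 by edgeR). At 54PEA neither label had a count, and KO-MII-D321, at 9.98 and 5.33 CPM, overlapped WT-MII, at 6.61 and 9.43. The 2 KO-54PEA libraries stood apart from the rest. They had 55.5% and 77.8% of their counts in the added ERCC spike-in RNA, against 5.23% and 4.42% in WT-54PEA, and 18 of the 79 genes had no count in KO-54PEA replicate 2. Over the 79 genes the Spearman correlation between the 2 libraries was 0.273 in KO-54PEA and 0.748 in KO-33PEA, against 0.930 to 0.984 in the WT groups. No pair of replicates agreed within sampling noise, so each was counted as a library of its own. Whether replicates came from separate animals is not given.

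In wild-type animals the summed share of the 79 genes ran through a trough at MII and then climbed to its highest level at 54PEA. The 2 libraries of each group held 11916 and 10758 summed CPM in WT-GV, 1210 and 1319 in WT-MII, 1676 and 1601 in WT-10PEA, 2098 and 4904 in WT-1C-20PEA, 35912 and 42420 in WT-33PEA, and 104926 and 109415 in WT-54PEA. At 54PEA, 10.7% ± 0.317 (SD, n = 2) of all gene counts came from these 79 genes, against 0.126% ± 0.00769 (SD, n = 2) at MII. Every level is a share of the library, and reverse transcription by this kind of method starts from poly(A) tails, so a change in tail length and a change in mRNA amount cannot be told apart. Relative to the spike-in, WT-54PEA had 1.90 and 2.36 ribosomal protein reads per ERCC read, below the 3.08 and 2.97 of WT-GV, whereas WT-MII had 0.120 and 0.0642. The ERCC share of counts was close between the libraries of WT-GV (0.386% and 0.361%). In other groups it differed widely, as in WT-1C-20PEA (1.71% and 7.82%) and KO-10PEA (0.867% and 11.5%), and results under spike-in scaling carry this spread.

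**Figure D1:**
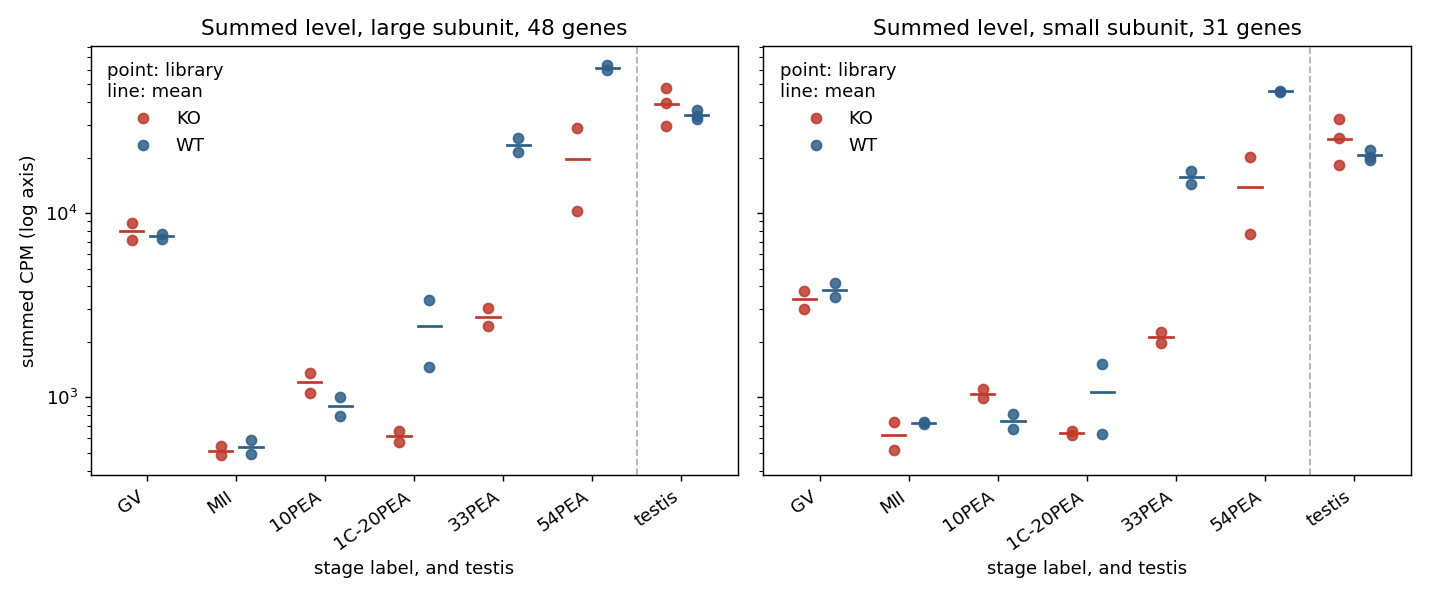
Summed CPM of the 48 large subunit genes (left) and the 31 small subunit genes (right) on log axes, with 1 point per library and a line at the mean of KO (red) and WT (blue) for the 6 stages and for testis. KO and WT lie close together at GV and MII, and at 33PEA both KO libraries (4416 and 5290 CPM over both subunits) lie below both WT libraries (35912 and 42420 CPM).

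**Figure D2:**
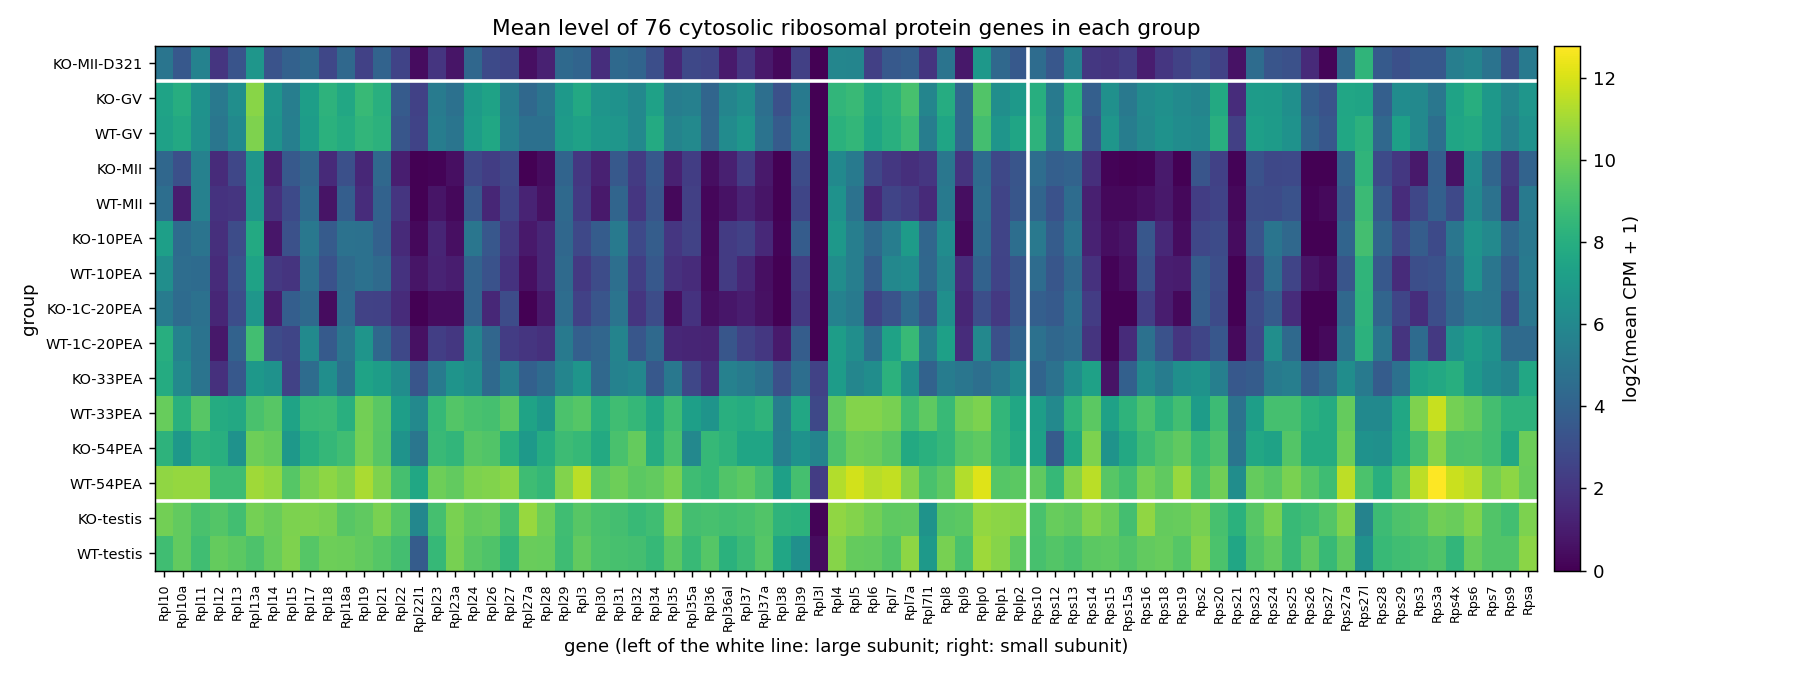
Mean level of the genes shown in each group, as log2(mean CPM + 1), with large subunit genes left and small subunit genes right of the vertical white line. The dark block over the MII, 10PEA and 1C-20PEA rows is broken by Rps27l, which averaged 423 CPM in WT-MII, and the rows WT-33PEA and WT-54PEA are brightest among the oocyte and embryo groups.

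From GV to MII, 10 genes fell and none rose. These were 12.7% of the 79, where 0.202% of all genes tested fell (edgeR quasi-likelihood test, adjusted over all genes tested). Of these, 9 were of the large subunit (Rpl10a, Rpl18, Rpl19, Rpl26, Rpl30, Rpl35, Rpl36al, Rpl6 and Rpl7a) and 1 was of the small subunit. The subunits lay closer in their median log2 changes, at −4.02 for the large and −3.77 for the small. An unadjusted p under 0.05 was found in 39 of 48 large and 23 of 31 small subunit genes, and in 1589 of all 17294. In 77 of the 79 genes both MII libraries lay below both GV libraries, where 46.5% of all genes did, and the median log2 change was −3.89, against −0.38 over all genes tested. Under spike-in scaling none of the 79 genes passed, with medians of −6.26 for the 79 genes and −2.64 for all genes.

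Rpl18, a protein of the large subunit, had 0.672 and 0.544 CPM in WT-MII, against 293 and 287 in WT-GV (log2 change −8.46 ± 1.40 (SE), adjusted p = 0.0148 by edgeR). Rpl10a, which forms the side arm of the large subunit by which spent tRNA leaves, had 1.57 and 0.544 CPM in WT-MII, against 203 and 224 in WT-GV (−7.27 ± 1.26, adjusted p = 0.0183). The groups were far apart in both genes. Rpl35 and Rpl26 sit around the exit of the tunnel through which the new peptide leaves. Rpl35 had 0.224 and 0.181 CPM in WT-MII, against 68.4 and 34.2 in WT-GV (−7.47 ± 1.09, adjusted p = 0.00496), and Rpl26 had 1.12 and 1.99 CPM in WT-MII, against 229 and 168 in WT-GV (−6.54 ± 1.32, adjusted p = 0.0368). Rpl19, which reaches across to the small subunit, had 2.24 and 1.99 CPM in WT-MII, against 316 and 359 in WT-GV (−6.91 ± 1.06, adjusted p = 0.00778). Other genes differed much less: Rpl11, which with Rpl5 can bind the p53 regulator Mdm2, had 46.8 and 48.8 CPM in WT-MII, against 91.2 and 82.7 in WT-GV (−0.45 ± 1.29, adjusted p = 1 by edgeR). By edgeR the calls of this step needed both WT-MII libraries, and that of Rpl26 also needed WT-GV replicate 1. DESeq2 called 57 genes lower, and its share over all genes is not given here.

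No ribosomal protein gene passed between WT-10PEA and WT-MII or between WT-1C-20PEA and WT-10PEA, where 0% of all genes passed by edgeR. At an unadjusted p under 0.05 there were 9 of the 79 genes in each step, where there were 477 and 544 of all 17294 genes. DESeq2 called 8 higher in the first step and 3 higher in the second, and its share over all genes is not given here. Both later libraries lay above both earlier ones in 34 genes and below in 12 in the first step, where 31.6% and 13.2% of all genes did, and in 32 and 4 in the second, where 23.7% and 19.0% did. Medians were 0.02 and 0.94 on the log2 scale, with all genes at 0 in both. The 2 WT-1C-20PEA libraries differed more than the WT pairs at GV and MII: Rpl10, placed last into the large subunit, had 111 and 404 CPM, and Rpl7a had 209 and 563 CPM.

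Between 1C-20PEA and 33PEA the family rose almost as a whole. In WT, 58 of the 79 genes rose (73.4%), where 4.96% of all genes tested did, and 1 fell. The 36 large subunit genes and 22 small subunit genes that rose made up 75.0% and 71.0% of their subunits. The median change was 4.53 on the log2 scale, against −1.23 over all genes tested, and it was 3.12 against −3.29 under spike-in scaling. In 75 of the 79 genes both 33PEA libraries lay above both 1C-20PEA libraries, where 21.4% of all genes did, and below them in 1, where 38.7% did. Mitochondrial ribosomal proteins, which build a separate ribosome, were unlike them: 4 rose and 14 fell of 74 tested, with a median of −0.46.

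Several of the genes that rose were close to absent before. Rps26, at the channel by which mRNA leaves the small subunit, had no count in either WT-1C-20PEA library and 269 and 309 CPM in WT-33PEA, at least 1567-fold higher against a floor of 3 counts over the earlier group (adjusted p = 0.000473 by edgeR). Rps15, in the head of the small subunit, likewise had no count in WT-1C-20PEA and 150 and 171 CPM in WT-33PEA, at least 870-fold higher (adjusted p = 0.00237). Both genes had been present in WT-GV, at 19.0 and 15.2 CPM for Rps26 and 126 and 83.0 CPM for Rps15. Rps3a, a small subunit protein near the same channel, had 3078 and 3567 CPM in WT-33PEA, against 6.16 and 0.510 in WT-1C-20PEA (log2 change 9.78 ± 2.10, adjusted p = 0.00356 by edgeR). Rps27, a zinc-binding small subunit protein, had 233 and 234 CPM in WT-33PEA, against 0.474 and 0 in WT-1C-20PEA (9.66 ± 1.88, adjusted p = 0.00236). In the large subunit, Rpl9 had 977 and 1067 CPM in WT-33PEA, against 1.42 and 2.81 in WT-1C-20PEA (8.75 ± 1.40, adjusted p = 0.000484). Rpl12, at the base of the stalk, had 221 and 244 CPM in WT-33PEA, against 0.237 and 1.28 in WT-1C-20PEA (8.08 ± 2.35, adjusted p = 0.0201), and it no longer passed without WT-1C-20PEA replicate 1 (adjusted p = 0.101) or replicate 2 (adjusted p = 0.0644).

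Values differed between genes. Of the stalk proteins, which draw in the translation factors, Rplp1 (5.34 ± 1.13, adjusted p = 0.00335) and Rplp2 (3.45 ± 0.84, adjusted p = 0.00772) rose, while their anchor Rplp0 was 4.14 ± 1.55 higher and did not pass (adjusted p = 0.0599, all edgeR). Rpl5 rose by 3.97 ± 0.84 (adjusted p = 0.0034) and its partner Rpl11 by 4.46 ± 1.49 (adjusted p = 0.0377). Rps27a, made as a fusion with ubiquitin, rose by 4.71 ± 1.14 (adjusted p = 0.00747). Rps6, the S6 kinase target, had 808 and 957 CPM in WT-33PEA, against 98.9 and 182 in WT-1C-20PEA, and did not pass (2.49 ± 1.38, adjusted p = 0.181). Rpl13a was the extreme case, with 500 and 611 CPM in WT-33PEA, against 311 and 644 in WT-1C-20PEA (0.05 ± 0.63, adjusted p = 1), so that here the groups overlapped. The number of genes called rested in part on single libraries: 18 passed without WT-1C-20PEA replicate 1, and 37 without WT-33PEA replicate 2, while spike-in scaling left 12. Oocyte markers moved with this step, with 1404 and 1378 summed CPM in WT-33PEA, against 11298 and 15882 in WT-1C-20PEA (5 of 9 lower), and their part was not tested.

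The step between WT-54PEA and WT-33PEA had few calls and a smaller median log2 change, although it added more summed CPM than the step before. By edgeR only Rps27l passed (1.27% of the 79 genes higher, 2.47% of all genes) and no gene was lower, where 4.61% of all genes were, although both 54PEA libraries lay above both 33PEA libraries in 77 of the 79 genes, where 28.0% of all genes did. The median was 1.40, against 0 over all genes. DESeq2 called 11 genes higher, and its share over all genes is not given here. Set against the GV oocyte in place of 33PEA, 35 genes were higher at 54PEA (44.3%), where 3.15% of all genes were, and none was lower. All 79 had both WT-54PEA libraries above both WT-GV libraries, where 29.6% of all genes did. The median was 3.15 against −1.21 over all genes, but this direction depends on the scale: under spike-in scaling the median was −0.30, against −4.68 over all genes, and no gene passed. The count was 19 and 17 without WT-54PEA replicates 1 and 2, and 5 and 3 without WT-GV replicates 1 and 2.

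The 2 largest called differences from GV were of small subunit genes. Rps14, which lines the platform where mRNA leaves, had 2776 and 2974 CPM in WT-54PEA, against 13.3 and 6.82 in WT-GV (7.89 ± 1.37, adjusted p = 0.000328 by edgeR). Rps3a had 7207 and 6988 CPM in WT-54PEA, against 28.6 and 18.9 in WT-GV (7.94 ± 1.94, adjusted p = 0.0054). Rps3, at the mRNA entry, had 3143 and 2778 CPM in WT-54PEA, against 72.6 and 56.0 in WT-GV (5.24 ± 1.60, adjusted p = 0.0221). Of the large subunit, Rpl9 had 2587 and 2472 CPM in WT-54PEA, against 22.9 and 14.5 in WT-GV (6.80 ± 1.28, adjusted p = 0.000686), and Rpl22, an RNA-binding protein, had 562 and 484 CPM in WT-54PEA, against 10.3 and 8.80 in WT-GV (5.48 ± 1.58, adjusted p = 0.0154). At the other end, Rpl13a had 1831 and 2228 CPM in WT-54PEA, against 1258 and 1272 in WT-GV (0.39 ± 0.63, adjusted p = 0.677). Rps3 (adjusted p = 0.063 and 0.0788) and Rpl22 (adjusted p = 0.0961 and 0.104) did not pass without WT-GV replicate 1 or 2.

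The balance of the subunits differed between the stages. Gene length enters a sum of CPM, so the ratio of the summed large to the summed small subunit is read only across groups. It was 1.85 and 2.08 in WT-GV, 0.684 and 0.803 in WT-MII, 1.5 and 0.970 in WT-10PEA, 2.30 and 2.24 in WT-1C-20PEA, 1.5 and 1.51 in WT-33PEA, and 1.31 and 1.37 in WT-54PEA. A single gene made up much of the small subunit sum at MII. Rps27l, a near copy of Rps27 that p53 induces in human cells, supplied 58.4% ± 1.09 (SD, n = 2) of the small subunit sum in WT-MII, against 7.68% ± 1.80 in WT-GV. Without this and the other copies (Rpl3l, Rpl7l1, Rpl22l1 and Rpl36al) the ratio was 1.78 ± 0.154 in WT-MII, against 2.09 ± 0.134 in WT-GV (SD, n = 2 each). The ratio of the median large to the median small subunit gene, on which 1 gene has little weight, was also lower, at 0.414 and 0.617 in WT-MII, against 1.24 and 1.01 in WT-GV. In WT-1C-20PEA this ratio of medians was 0.892 and 0.823, below WT-GV, whereas the ratio of sums lay above it.

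Rps27l and Rps27 went opposite ways between 1C-20PEA and 33PEA. Rps27l had 374 and 224 CPM in WT-GV, 425 and 421 in WT-MII, 273 and 391 in WT-10PEA, 180 and 405 in WT-1C-20PEA, 49.7 and 84.5 in WT-33PEA, and 627 and 534 in WT-54PEA. Rps27 had 13.3 and 7.15 CPM in WT-GV, 0 and 0.544 in WT-MII, 0.217 and 0.453 in WT-10PEA, 0.474 and 0 in WT-1C-20PEA, 233 and 234 in WT-33PEA, and 491 and 409 in WT-54PEA. Rps27l was thus the 1 gene that fell between 1C-20PEA and 33PEA (−2.30 ± 0.75, adjusted p = 0.0344 by edgeR) and the 1 that rose from there to 54PEA (3.05 ± 0.77, adjusted p = 0.0178). Both calls rested on single libraries. The fall did not pass without WT-1C-20PEA replicate 2 (adjusted p = 0.261), WT-33PEA replicate 1 (0.19) or WT-33PEA replicate 2 (0.118), and the rise did not pass without WT-33PEA replicate 1 (0.171) or 2 (0.077) or WT-54PEA replicate 1 (0.0851) or 2 (0.17). Reads of such near-identical copies can be split or shared by the counting, and how reads with several matches were treated is not given in the sources used here.

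**Figure D3:**
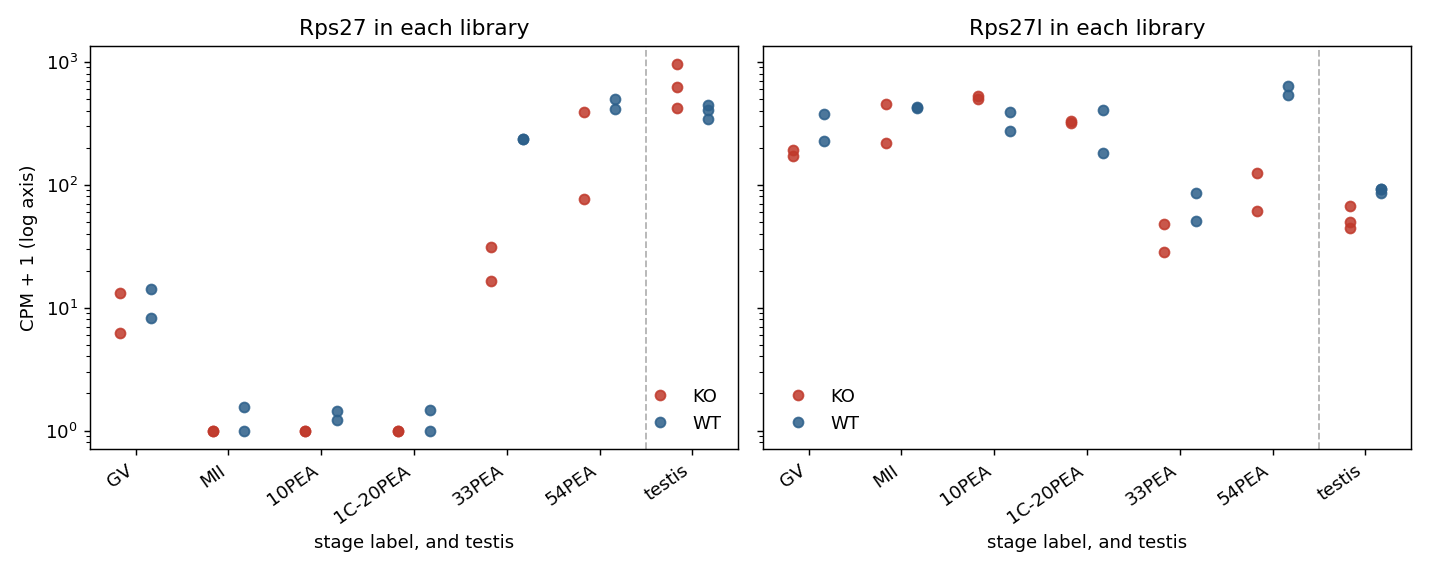
CPM + 1 of Rps27 (left) and Rps27l (right) in each library on a log axis, KO red and WT blue. In WT-MII Rps27 is at 0 and 0.544 CPM while Rps27l is at 425 and 421 CPM, and in WT-33PEA Rps27 is at 233 and 234 CPM while Rps27l is at 49.7 and 84.5 CPM.

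The other copies behaved as follows. Rpl22l1, the partner copy of Rpl22, had no count in WT-MII, 71.4 and 56.7 CPM in WT-33PEA, against 0.474 and 0.510 in WT-1C-20PEA, and rose in that step (6.82 ± 2.34, adjusted p = 0.0445 by edgeR). Rpl36al rose in the same step (4.63 ± 1.14, adjusted p = 0.00834). Rpl3l, the striated muscle copy of Rpl3, had no count in any WT group before 33PEA and stayed at 2.30 to 8.60 CPM in WT-33PEA and WT-54PEA. Rpl7l1 had 722 and 870 CPM in WT-33PEA, against 37.5 and 44.4 in WT-1C-20PEA, and did not pass (4.11 ± 1.83, adjusted p = 0.103).

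Between KO and WT the 4 earlier stages gave no call by edgeR and a few by DESeq2, most of them at 1C-20PEA. By edgeR no ribosomal protein gene passed at GV, MII, 10PEA or 1C-20PEA, where 0% of all genes did either. At an unadjusted p under 0.05 there were 0 at GV, 6 at MII, 3 at 10PEA and 20 at 1C-20PEA. Over all 17294 genes tested there were 28, 707, 266 and 1048 at these stages. DESeq2 called 0, 2 lower, 0 and 16 lower, and its share over all genes is not given here. Summed levels were 10167 and 12629 CPM in KO-GV, against 11916 and 10758 in WT-GV, and 1063 and 1222 in KO-MII, against 1210 and 1319 in WT-MII. Libraries of KO lay above both of WT in 11 genes and below both in 11 at GV (all genes 15.9% and 14.5%), and in 10 and 10 at MII (6.51% and 20.5%). At 10PEA they lay above in 25 and below in 6, where 13% and 22.9% of all genes did, and the sums were 2047 and 2464 CPM in KO-10PEA, against 1676 and 1601 in WT-10PEA. In the further MII set, KO-MII-D321 had 1185 and 1886 CPM. No gene passed against WT-MII by edgeR, where 0% of all genes did. DESeq2 called 1 higher, and its share over all genes is not given here. An unadjusted edgeR p under 0.05 was found in 9 of the 79, where there were 278 of all 17294 genes. Both KO-MII-D321 libraries lay above both WT-MII libraries in 25 genes and below in 3, where 15.9% and 15.5% of all genes did.

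At 1C-20PEA the KO libraries sat lower, without a call by edgeR and with 16 genes lower by DESeq2, whose share over all genes is not given here. KO-1C-20PEA had 1278 and 1226 summed CPM, against 2098 and 4904 in WT-1C-20PEA. Both KO libraries lay below both WT libraries in 40 of the 79 genes, where 26% of all genes did, and above both in 3, where 12.5% did, and the median log2 difference was −1.37, against 0 over all genes tested, and −1.36 with genes absent from 1 group set at their bound. It was −0.21, against 0.26 over all genes, under spike-in scaling. The smallest p-values were those of Rpl19, with 5.27 and 4.15 CPM in KO-1C-20PEA, against 42.2 and 162 in WT-1C-20PEA (−4.25 ± 0.94, adjusted p = 0.293 by edgeR), and Rpl7a, with 31.0 and 12.7 CPM in KO-1C-20PEA, against 209 and 563 in WT-1C-20PEA (−3.96 ± 0.94, adjusted p = 0.368). The large to small subunit ratio was 1.05 and 0.879 in KO-1C-20PEA, against 2.30 and 2.24 in WT-1C-20PEA. Rps27l supplied 50.7% of the small subunit sum in both KO-1C-20PEA libraries, against 28.4% and 26.7% in WT-1C-20PEA. Without Rps27l the ratio was 2.13 and 1.78 in KO-1C-20PEA, against 3.22 and 3.05 in WT-1C-20PEA. The ratio of medians was 0.606 and 0.466 in KO-1C-20PEA, against 0.892 and 0.823 in WT-1C-20PEA.

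At 33PEA the family was far lower in KO than in WT embryos. The summed level was 4416 and 5290 CPM in KO-33PEA, against 35912 and 42420 in WT-33PEA, 8.07-fold lower by the means. Of the 79 genes 27 fell (34.2%) and none rose, where 4.46% of all genes fell and 5.66% rose. Both KO libraries lay below both WT libraries in 78 of the 79, where 20.8% of all genes did, and above both in none, where 20.2% did. The median log2 change was −3.08, against 0 over all genes tested, and −3.93 against 0 under spike-in scaling. Of the large subunit 18 of 48 genes fell with a median of −3.17, and of the small subunit 9 of 31 with a median of −2.88. Fitted changes were below 0 in every one of the 79, from −7.92 to −0.32. Mitochondrial ribosomal proteins had a median of −1.02, with 14 lower and 3 higher of 74.

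Rps15 showed the widest gap, with 0.897 and 0.349 CPM in KO-33PEA, against 150 and 171 in WT-33PEA (−7.92 ± 1.95, adjusted p = 0.0179 by edgeR). Rpl15, a large subunit protein, had 2.84 and 6.62 CPM in KO-33PEA, against 149 and 193 in WT-33PEA (−5.15 ± 1.24, adjusted p = 0.0148). Rpl9 had 40.9 and 22.0 CPM in KO-33PEA, against 977 and 1067 in WT-33PEA (−4.99 ± 1.18, adjusted p = 0.0137). The libraries did not overlap in any of these. Rpl5 had 57.2 and 57.5 CPM in KO-33PEA, against 1260 and 1499 in WT-33PEA (−4.56 ± 0.87, adjusted p = 0.00423). Rpl11, its partner, had 40.9 and 18.0 CPM in KO-33PEA, against 688 and 715 in WT-33PEA, just short of the threshold (−4.55 ± 1.49, adjusted p = 0.0544). The stalk anchor Rplp0 had 45.4 and 3.14 CPM in KO-33PEA, against 905 and 1543 in WT-33PEA (−5.60 ± 1.67, adjusted p = 0.0367), and Rplp1 fell as well (−3.18 ± 1.02, adjusted p = 0.0495).

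Around the peptide tunnel, Rpl26 had 5.38 and 33.5 CPM in KO-33PEA, against 518 and 515 in WT-33PEA (−4.72 ± 1.20, adjusted p = 0.0193 by edgeR), and Rpl35, Rpl17 and Rpl39 fell with it. Rpl36 had 1.49 and 2.79 CPM in KO-33PEA, against 83.1 and 112 in WT-33PEA (−5.48 ± 1.71, adjusted p = 0.044). Rps25, needed for some unusual modes of initiation, fell by 3.57 ± 0.90 on the log2 scale (adjusted p = 0.0187), and Rps27a by 3.47 ± 1.07 (adjusted p = 0.0433). Genes near no change included Rpsa, the laminin-receptor protein of the small subunit, at 255 and 144 CPM in KO-33PEA, against 315 and 299 in WT-33PEA (−0.60 ± 0.69, adjusted p = 0.635), and Rps27l, at 47.1 and 27.4 CPM in KO-33PEA, against 49.7 and 84.5 in WT-33PEA (−0.81 ± 0.72, adjusted p = 0.484).

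Single libraries bore on these calls. The count was 7 without KO-33PEA replicate 1, 10 without KO-33PEA replicate 2, 15 without WT-33PEA replicate 1 and 8 without WT-33PEA replicate 2, all lower, and 0 when only the 4 libraries compared were fitted or under spike-in scaling. Without KO-33PEA replicate 1, Rps15 (adjusted p = 0.055), Rpl15 (0.087) and Rpl26 (0.113) did not pass by edgeR. Without KO-33PEA replicate 2, Rps15 (0.0787), Rpl9 (0.0802) and Rplp0 (0.155) did not, and without WT-33PEA replicate 2, Rpl26 (0.0534) and Rplp0 (0.101) did not. Rpl36 passed in none of the 4 fits that left out a 33PEA library (adjusted p from 0.0628 to 0.165). Oocyte marker genes moved with this comparison: of 9 listed, 2 were higher in KO, their summed level was 7716 and 8082 CPM in KO-33PEA, against 1404 and 1378 in WT-33PEA, and 1 or 2 of the 9 had no count in each library. The macrophage list, with 4 or 5 of its 7 genes at 0 in each library, summed to 1693 and 487 CPM in KO-33PEA, against 238 and 118 in WT-33PEA. The same list summed to 419 and 210 CPM in WT-GV and 666 and 547 in WT-10PEA, above the 30.1 to 43.4 CPM of WT testis. Its sum in oocytes and embryos is therefore not read as a sign of macrophages. The part of these markers in the ribosomal protein result was not tested. The WT-33PEA libraries also served in the comparison with WT-1C-20PEA, so the large values there and here are not independent.

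At 54PEA the share of genes called was near that of the whole transcriptome, while nearly all fitted changes lay below 0. In KO-54PEA 14 genes were lower (17.7%) and none higher, where 16.9% of all genes were lower and 4.04% higher. Both KO libraries lay below both WT libraries in 70 of the 79 genes, where 35.2% of all genes did, and above both in 1, where 5.66% did, and 78 of the 79 fitted changes were below 0. The fitted changes depend on the TMM scaling factors, 1.52 and 2.71 in KO-54PEA, against 1.25 and 1.16 in WT-54PEA. Thus Rpsa, with a mean of 983 CPM in KO-54PEA, against 951 in WT-54PEA, had a fitted change of −0.70. The summed level was 48976 and 17897 CPM in KO-54PEA, against 104926 and 109415 in WT-54PEA. The median change was −2.32, against −1.07 over all genes tested and −3.42 over the mitochondrial ribosomal proteins, of which 33 of 74 were lower. Under spike-in scaling the medians were −6.70 for the 79 genes and −5.05 for all genes. By edgeR 74 of the 79 were lower under that scaling, and the share over all genes is not given here. The ribosomal protein reads per ERCC read were 0.0393 and 0.00511 in KO-54PEA, against 1.90 and 2.36 in WT-54PEA.

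Rpl10a had 74.8 and 149 CPM in KO-54PEA, against 1561 and 1939 in WT-54PEA (−4.80 ± 1.11, adjusted p = 0.00368 by edgeR). Rps12, in the head of the small subunit, had 24.0 and 0 CPM in KO-54PEA, against 377 and 373 in WT-54PEA (−5.30 ± 1.60, adjusted p = 0.0211). Rps13 had 329 and 58.3 CPM in KO-54PEA, against 1437 and 1336 in WT-54PEA (−3.27 ± 0.95, adjusted p = 0.0169). Rpl7a had 283 and 150 CPM in KO-54PEA, against 1216 and 1450 in WT-54PEA (−3.20 ± 0.91, adjusted p = 0.0149), and Rps27l had 124 and 59.6 CPM in KO-54PEA, against 627 and 534 in WT-54PEA (−3.21 ± 0.78, adjusted p = 0.00501). Rpl15 was lower too (−3.40 ± 1.14, adjusted p = 0.0365), but not without any 1 of the 4 libraries (adjusted p from 0.0717 to 0.0878). Many others were present in 1 KO library and absent from the other, among them Rps3a with 2812 and 0 CPM in KO-54PEA, against 7207 and 6988 in WT-54PEA, and Rps6 with 1224 and 0 CPM, against 2711 and 2792. Rpsa stood level, with 869 and 1098 CPM in KO-54PEA, against 839 and 1063 in WT-54PEA (−0.70 ± 0.70, adjusted p = 0.539). Without KO-54PEA replicate 1 the count was 49, without KO-54PEA replicate 2 it was 7, and it was 5 and 7 without WT-54PEA replicates 1 and 2. Of 9 oocyte markers 5 were higher in KO, with 736 and 2449 summed CPM in KO-54PEA, against 132 and 109 in WT-54PEA, and their part was not tested.

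**Figure D4:**
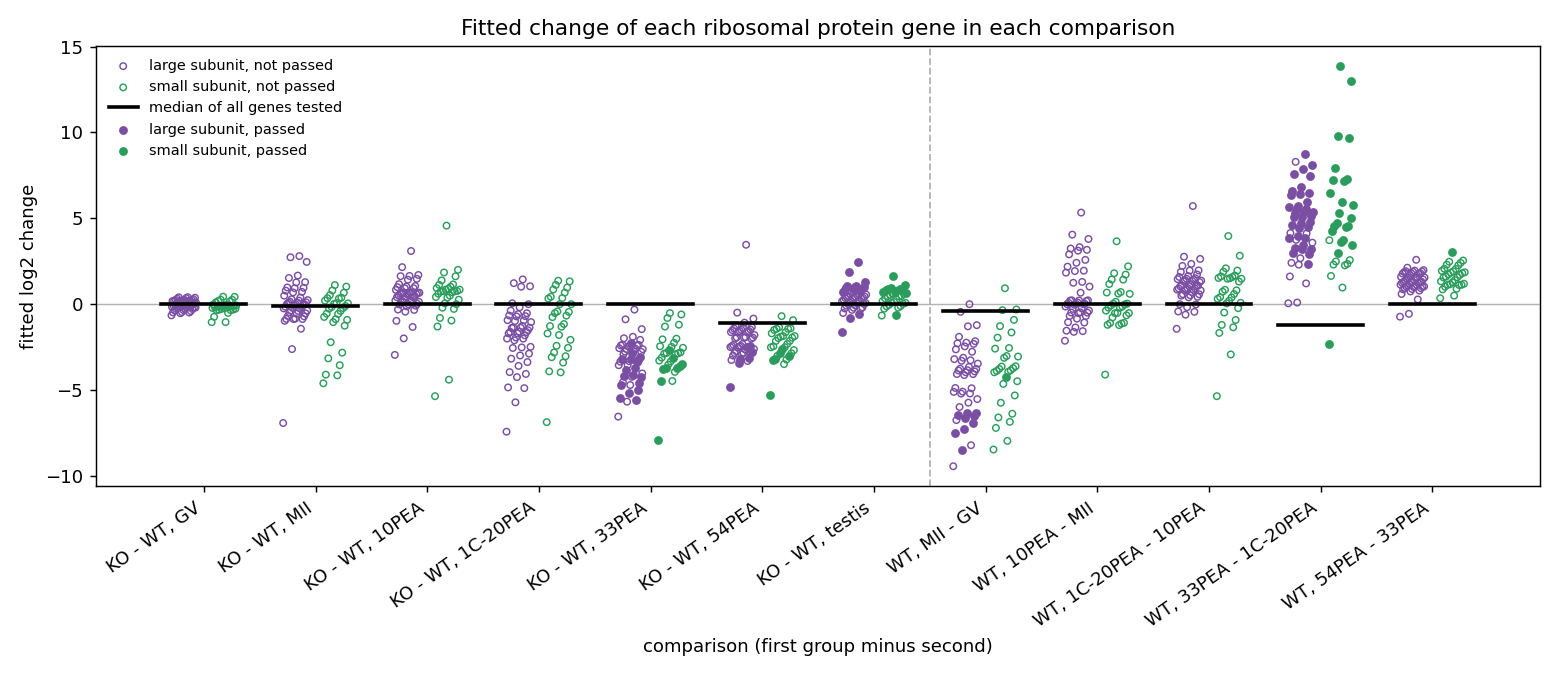
Fitted log2 change of each of the 79 genes, by subunit, in KO against WT (left of the dashed line) and between successive WT stages (right), with filled points for genes that passed and a black line at the median of all genes tested. At 33PEA every point of KO against WT lies below 0 (median −3.08), and in testis the points straddle the line (median 0.37).

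Averaged over the 6 stages, 15 genes were lower in KO and none higher (19.0%), where 6.24% of all genes were lower. The median was −1.03, against −0.56 over all genes. The lowest were Rpl27a at −3.30 ± 0.63 (adjusted p = 0.00342 by edgeR) and Rps27 at −2.97 ± 0.73 (adjusted p = 0.0164). Among the others were Rps4x, the X-linked form of a small subunit protein in mouse and human, at −1.70 ± 0.47 (adjusted p = 0.0263), and Rpl7 at −1.61 ± 0.42 (adjusted p = 0.0188). Rpl27a had 15.8 and 12.9 CPM in KO-33PEA, against 179 and 163 in WT-33PEA, and no count in KO-MII, against 0.224 and 2.63 CPM in WT-MII. It also had no count in KO-1C-20PEA, against 12 and 35 reads in WT-1C-20PEA. Rps27 had no count in KO-MII, KO-10PEA or KO-1C-20PEA, against 0 and 6, 2 and 4, and 4 and 0 reads in WT. Both averages thus rest in part on stages near 0. Neither gene passed by edgeR at 33PEA (adjusted p = 0.0838 for Rpl27a and 0.116 for Rps27) or at 54PEA (0.162 and 0.486). The count was 61 without KO-54PEA replicate 1, 38 without KO-54PEA replicate 2, 8 without KO-GV replicate 1 and 9 without WT-1C-20PEA replicate 2.

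In testis, where libraries were made from total RNA with another kit, the family leaned upward in KO, with shares of called genes no larger than those of all genes. In KO testis 20 genes were higher and 4 lower (25.3% and 5.06%), where 27.9% of all genes were higher and 30.2% lower. Fitted changes were above 0 in 61 of the 79 genes, and the median was 0.37 on the log2 scale, against 0.03 over all genes tested, and 0.17 against 0.01 without KO testis replicate 3. All KO libraries lay above all WT libraries in 11 of the 79 genes and below them in 11, where 27.5% and 37.7% of all genes did. The summed level was 47870, 65192 and 79837 CPM in KO testis, against 53728, 58557 and 51841 in WT testis, so the groups overlapped. Of the large subunit 10 of 48 genes were higher and 3 lower, and of the small subunit 10 of 31 were higher and 1 lower. The large to small ratio was 1.63, 1.55 and 1.47 in KO testis, against 1.66, 1.65 and 1.66 in WT testis, without overlap. Of the mitochondrial ribosomal proteins 4 were higher and 20 lower of 75.

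The genes known to be X-linked in mouse and human, grouped here after their values were seen, were among those with the largest rises. Rpl39, which lines the peptide tunnel, had 225, 323 and 309 CPM in KO testis, against 73.5, 97.4 and 83.6 in WT testis (1.89 ± 0.22, adjusted p = 9.69e-05 by edgeR). Rps4x had 781, 973 and 1094 CPM in KO testis, against 301, 361 and 347 in WT testis (1.63 ± 0.21, adjusted p = 0.000162). Rpl10 had 778, 1097 and 1295 CPM in KO testis, against 426, 551 and 433 in WT testis (1.31 ± 0.24, adjusted p = 0.00124). In all 3 genes every KO library lay above every WT library, and the calls held in each fit that left out a library. Rpl10l, the autosomal copy of Rpl10 that replaces it in mouse meiosis and is not one of the 79, went the other way, with 4.52, 4.38 and 4.47 CPM in KO testis, against 205, 188 and 241 in WT testis (−5.44 ± 0.23, adjusted p = 1.25e-06).

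Beside these, germ cell markers fell together: all 9 listed were lower in KO, and their summed level was 61.8, 20.5 and 48.9 CPM in KO testis, against 3421, 2799 and 3880 in WT testis. Markers of the somatic cells rose, with 8 of 9 for Sertoli cells, 6 of 6 for Leydig cells and 5 of 7 for macrophages. The Sertoli list summed to 18372, 21662 and 14211 CPM in KO testis, against 7981, 7847 and 7146 in WT testis, the Leydig list to 3207, 3197 and 2629 CPM, against 572, 505 and 536, and the macrophage list to 66.0, 105 and 82.4 CPM, against 30.1, 34.6 and 43.4. No listed marker of these 4 cell types was at 0 in any testis library. In whole testis, fewer cells of a type and less RNA per cell cannot be told apart, and the part of these markers in each ribosomal protein result was not tested.

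Rpl22l1 rose most among the members, with 29.5, 41.2 and 110 CPM in KO testis, against 10.7, 13.6 and 12.1 in WT testis (2.47 ± 0.46, adjusted p = 0.00152 by edgeR), while Rpl22 did not pass (0.56 ± 0.29, adjusted p = 0.127). Rpl17, at the tunnel exit, had 912, 1113 and 1819 CPM in KO testis, against 651, 774 and 636 in WT testis (1.04 ± 0.27, adjusted p = 0.00893). Rps3a had 846, 946 and 1359 CPM in KO testis, against 572, 633 and 659 in WT testis (0.89 ± 0.23, adjusted p = 0.00797). KO testis replicate 3 was highest in all 3 of these genes. Other genes that rose included Rpl5 (0.78 ± 0.25, adjusted p = 0.021) and Rps6 (0.69 ± 0.21, adjusted p = 0.0191). The stalk proteins did not pass: Rplp2 had 526, 892 and 2776 CPM in KO testis, against 830, 804 and 738 in WT testis (0.98 ± 0.51, adjusted p = 0.129).

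Of the genes that fell, Rpl7a had 894, 1014 and 559 CPM in KO testis, against 1617, 1612 and 1523 in WT testis (−0.82 ± 0.23, adjusted p = 0.012 by edgeR). Rps27l had 43.4, 48.8 and 65.8 CPM in KO testis, against 91.7, 83.8 and 91.6 in WT testis (−0.62 ± 0.22, adjusted p = 0.0338), while Rps27 rose (0.89 ± 0.30, adjusted p = 0.0263). Rpl8, close to the centre where peptide bonds form, had 764, 861 and 511 CPM in KO testis, against 1121, 1186 and 1153 in WT testis (−0.57 ± 0.21, adjusted p = 0.0425). Rpl3l had 0.0628, 0.122 and 0.127 CPM in KO testis, against 0.323, 0.410 and 0.350 in WT testis (−1.63 ± 0.55, adjusted p = 0.0288), which is 10 counts in KO testis and 37 in WT testis. Rpl8 did not pass without WT testis replicate 1, 2 or 3 (adjusted p = 0.105, 0.0925 and 0.115), and Rps27l did not pass without those (0.107, 0.0539 and 0.101) or without KO testis replicate 1 or 2 (0.0833 and 0.0936). Over all 79 genes, 45 passed without KO testis replicate 1, and 8, 12 and 9 without WT testis replicates 1, 2 and 3. KO testis replicate 3 was the least like the others, with a Spearman correlation over the 79 genes of 0.662 with replicate 1 and 0.760 with replicate 2.

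**Figure D5:**
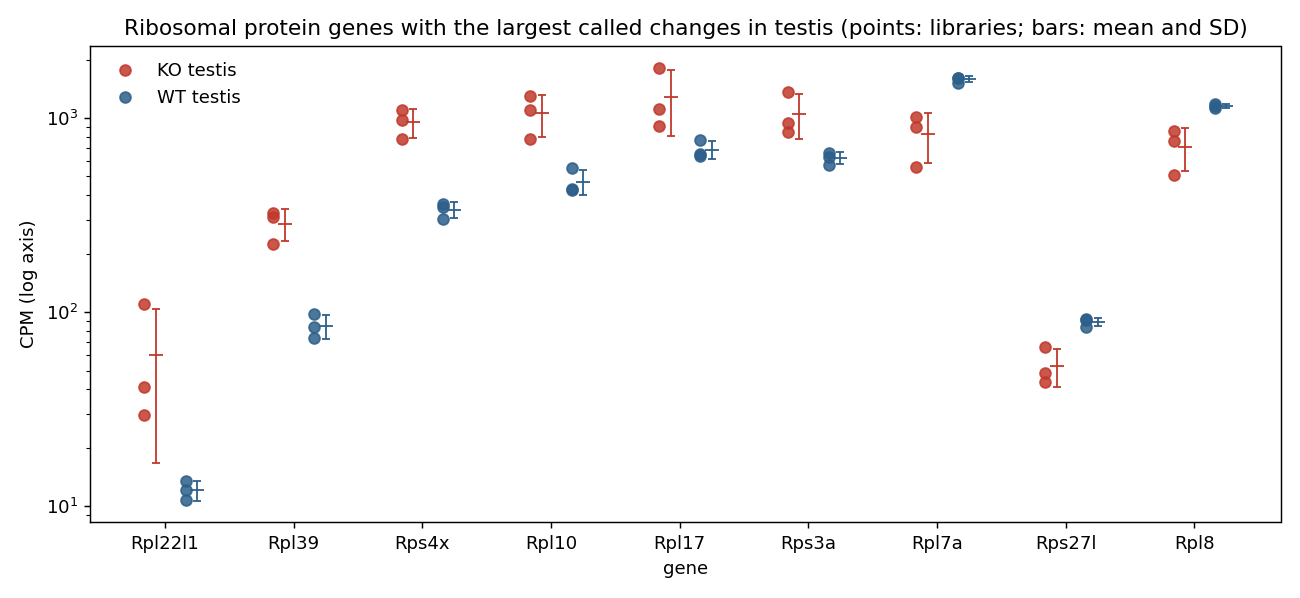
CPM of 9 ribosomal protein genes with the largest called changes in testis at a mean of 5 CPM or more, KO left of WT, with points for the 3 libraries and bars for the mean and SD, on a log axis. Rpl39, Rps4x and Rpl10 lie above WT in all 3 KO libraries, and Rpl7a, Rps27l and Rpl8 lie below it.

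Genes that share the family's translation control or serve its assembly were described from further lists, and no difference between these lists and the family was tested. Of 18 further mRNAs known for the same pyrimidine tract, 5 rose and 1 fell between WT-1C-20PEA and WT-33PEA, where 4.96% of all genes rose and 15.7% fell. The 5 included Fau, which encodes a small subunit protein fused to a ubiquitin-like domain, at 824 and 924 CPM in WT-33PEA, against 4.50 and 18.9 in WT-1C-20PEA (6.06 ± 1.10, adjusted p = 0.00122 by edgeR), and Rack1, a scaffold on the small subunit (3.87 ± 1.38, adjusted p = 0.0497). The 1 that fell was Eif3e, a subunit of an initiation factor (−3.21 ± 0.84, adjusted p = 0.0117). In KO against WT at 33PEA, where 4.46% of all genes were lower and 5.66% higher, 1 of these 18, 1 of 17 mTOR and Larp1 pathway genes, 1 of 12 ribosomal protein chaperones and importins and 0 of 11 ribosome quality control genes were lower by edgeR, and none was higher. At 54PEA, where 16.9% of all genes were lower and 4.04% higher, 5 of the 18, 4 of the 17, 3 of the 12 and 5 of the 11 were lower, and 1 of the 11 was higher. In testis, where 27.9% of all genes were higher and 30.2% lower, 5 of the 17 were higher and 4 lower, 2 of the 12 were higher and 6 lower, and 1 of the 11 was higher and 2 lower. The pyrimidine tract list had 2 higher and 4 lower: Tpt1, a growth-related calcium-binding protein, rose by 1.08 ± 0.21 (adjusted p = 0.00185), and Pabpc1, which binds poly(A) tails, fell by 3.20 ± 0.62 on the log2 scale (adjusted p = 0.00189).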

How the data were processed

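Long RNA of 32 libraries was used here out of 64 samples, and the 32 small RNA samples were not analysed here. The deposited values are whole-number counts of reads per gene, which the authors made from their own alignments. Per the submitters' processing notes the tools included Trim Galore, STAR 2.7.1a, TopHat and featureCounts, and the treatment of reads with several matches and the strand setting are not given in the sources used here. Lines without a gene (8) were dropped, and 92 ERCC rows were kept out of library sizes. Counts were tested with edgeR 4.0.16 (quasi-likelihood test, TMM scaling, filterByExpr, Benjamini-Hochberg adjustment over all genes, threshold 0.05) in R 4.3.3, with the 26 oocyte and embryo libraries in 1 fit and the 6 testis libraries in another. Common dispersions were 1.07 and 0.0806, so the first fit detects only large changes. Values after ± beside a log2 change are standard errors. CPM are shares of gene counts and are not per gene length, so genes are not ranked by level. The code was tested on simulated data.

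Genes named beside a comparison were up to 6 that passed with the largest rise and up to 6 with the largest fall, where the mean of the higher group reached 5 CPM and no libraries overlapped, together with genes chosen for their role and, where the text gives other genes near no change or absent from 1 library, genes chosen after their values were seen. The members and lists were chosen with earlier results of these data known. Alternatives were RLE and ERCC scaling, no filter, DESeq2 1.42.0, a replicate block, only the 4 libraries compared, and leaving out each library. Where a group is at 0, a fold is a lower bound against 3 counts over the group. Reads carry no molecular identifiers, so depth limits cover counting error only. Ribosomal protein genes have many near-identical processed copies in mammalian genomes, and reads may be split between them. Sequences were not used here, and some genes stay in the fits and counts but are not reported by name.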

Additional observations from a re-analysis of the deposited data

Results flagged for a closer look

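In 11 of the 79 genes (13.9%, where 9.40% of all genes tested passed) the KO effect differed between the 6 stages by edgeR's test of that difference, 9 in the large subunit and 2 in the small subunit. Among them the adjusted p was 0.0192 for Rpl5, 0.0193 for Rpl15, 0.0233 for Rpl10a, 0.0244 for Rpl9, 0.0253 for Rpl35, 0.0270 for Rps25, 0.0360 for Rpl7a, 0.0432 for Rpl17, 0.0485 for Rpl18 and 0.0497 for Rpl6. The count was 57 without KO-54PEA replicate 1 and 48 without KO-54PEA replicate 2. It was between 4 and 7 without WT-GV replicate 1 or 2, KO-GV replicate 1 or 2, WT-MII replicate 1 or 2, WT-10PEA replicate 1 or 2, KO-10PEA replicate 2, WT-1C-20PEA replicate 2, KO-1C-20PEA replicate 2, WT-33PEA replicate 2, KO-33PEA replicate 1 or 2, or WT-54PEA replicate 1.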

How the results depend on the processing

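None of the 47 gene and comparison pairs named by the rule on called genes changed sign under the alternatives run, and genes named for other reasons were not followed. By contrast the median of the 79 genes for 54PEA against GV changed sign under ERCC scaling (−0.30, against 3.15). Of the 47 pairs 15 kept their call in every alternative. The counts in this section are of the 79 genes, and the shares over all genes under the alternatives are not given here. ERCC scaling left 0 genes called for KO against WT at 33PEA, 74 at 54PEA, 0 for MII against GV, 12 for 33PEA against 1C-20PEA, 0 for 54PEA against 33PEA, 0 for 54PEA against GV and 24 for the average of 6 stages. Without the filter the counts were 45 at 33PEA, 25 at 54PEA, 27 for MII against GV, 0 for 54PEA against 33PEA, 23 for the average and 26 for the stage difference. DESeq2 gave 2 at MII, 16 at 1C-20PEA, 60 at 33PEA, 1 for D321, 57 for MII against GV, 8 for 10PEA against MII, 3 for 1C-20PEA against 10PEA, 11 for 54PEA against 33PEA, 65 for 54PEA against GV, 32 for the average and 41 for the stage difference. With only the 4 libraries compared there were 0 at 33PEA, 1 at 54PEA, 72 for MII against GV, 6 for 10PEA against MII, 46 for 54PEA against 33PEA and 77 for 54PEA against GV. RLE scaling gave 24 for MII against GV and 17 for the stage difference. The cause of these shifts was not tested. Deviations of same-numbered libraries had correlations of −0.0935 to 0.0268 in testis and −0.0602 to 0.265 over the stages, highest at GV (0.265) and 1C-20PEA (0.131), so the numbers were not taken to pair the libraries. A replicate block gave 13 at 33PEA and 0 for the stage difference, and 19 in testis, 13 at 54PEA and 12 for the average.

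Leaving out 1 library each gave counts of 8 to 45 in testis, 7 to 15 at 33PEA, 5 to 49 at 54PEA, 0 to 9 for MII against GV, 18 to 44 for 33PEA against 1C-20PEA, 0 to 0 for 54PEA against 33PEA, 3 to 19 for 54PEA against GV, 8 to 61 for the average and 4 to 57 for the stage difference. The large to small ratio without paralogs was 2.44 in KO-GV, 1.71 in KO-MII-D321, 1.74 in KO-MII, 1.78 in WT-MII, 2.20 in KO-10PEA, 2.14 in WT-10PEA, 1.92 in KO-1C-20PEA, 3.06 in WT-1C-20PEA, 1.44 in WT-33PEA and 1.64 in WT-testis. From medians it was 1.15 in KO-GV, 1.13 in WT-GV, 0.762 in KO-MII-D321, 0.515 in WT-MII, 0.854 in KO-10PEA, 0.755 in WT-10PEA, 0.536 in KO-1C-20PEA, 0.857 in WT-1C-20PEA, 0.946 in KO-33PEA, 1.26 in WT-33PEA, 1.05 in WT-54PEA, 1.02 in KO-testis and 1.08 in WT-testis.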
